A study of Gallus gallus with 12 samples.

Results

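Female and male chick embryos were compared in the chorioallantoic membrane (CAM), the vascularized membrane through which the embryo exchanges gas, at E5 (HH26), E7 (HH30) and E14 (HH40). At E5 the tissue is the allantoic vesicle, which the authors also call CAM. The labels do not give the sex of the embryos. The sexes were chosen by the signal of the brighter of the HINTW probe sets, HINTW being a gene of the W chromosome that only female birds carry. An array over 1000 was taken as female and one under 200 as male. This gave 4 female CAMs, 1 at E5, 1 at E7 and 2 at E14, and 5 male CAMs, 2 at E5, 2 at E7 and 1 at E14, so that 9 of the 12 arrays of the series entered the comparison. The 3 arrays of E10 were all above the female limit, had no male array to be set against, and are shown only beside the others. Each CAM came from 1 embryo of unmanipulated development, was snap-frozen whole and was read on its own Affymetrix chicken array, and the strain is not given in the sources used here. Values are signals without a unit, scaled by the authors over each whole array, and since a whole membrane was read, fewer cells of a type cannot be told apart from less RNA per cell. Differences are female minus male on the log2 scale with stage as a term, and a probe set was called at a limma adjusted p (Benjamini-Hochberg over 19124 tested probe sets) under 0.05.

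In birds the female is the sex with unlike sex chromosomes. Males carry a pair of Z chromosomes, and females carry a single Z and the small, gene-poor W. The W chromosome retains a small set of genes, many of them copies of a Z-linked partner that work in every tissue. Chickens have no counterpart of the silencing of a whole X chromosome in mammals, and the output of the Z is known to be balanced between the sexes only in part and gene by gene. DMRT1, on the Z, is the gene whose dose directs the gonad towards testis. Next to it lies the male hypermethylated (MHM) locus, known for a non-coding RNA made in females and for neighbouring genes with little male excess.

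No array lay between the limits of HINTW. Among the females HINTW had signals of 3679.6 at E5, 7633 at E7 and 4679.8 and 4458 at E14, against 9.99 and 2.73 at E5, 11.7 and 109.6 at E7 and 2.59 at E14 in the males. The female array nearest the limit was that of E5, and the male array nearest the lower limit was E7 replicate 3, at 109.6 against 200. These values chose the sexes, so they are a description and carry no test, and the same holds for every other gene of the W chromosome.

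HINTW was not alone. The annotation places 39 probe sets on W, of which 21 passed the filter on low signals, and these 21 stand for 13 genes. In 13 probe sets of 10 genes every female signal was above every male signal, and in all 13 the E10 arrays, which had no part in the comparison, were above every male as well. At each of the 3 stages taken alone these 13 (61.9% of the W probe sets tested) had females above males, as did 4.6% of all tested probe sets, and since W chose the sexes nothing is read from this. Over the 13 probe sets the ratio of the median female to the median male signal ran from 4.3 for LOC431003 to 458 for HINTW.

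LOC374195, for which the annotation lists CHD1W as a synonym, is the W copy of a chromatin remodeler. Its signals were 87.2 at E5, 181 at E7 and 92 and 105 at E14 in the females, against 0.581 and 0.815, 14 and 19.6, and 0.427 in the males at the same stages. All females lay above all males, and the E10 arrays lay between 81.6 and 137. SPIN1L, the W copy of the spindlin gene of chromatin reading proteins, had 65.7, 59.7, 96.2 and 86 in the females, against 0.1, 0.855, 1.42, 5.37 and 5.33 in the males. UBE2R2L, a W copy of a ubiquitin-conjugating enzyme, was read by 2 probe sets, with 111 to 165 and 83.4 to 119.6 in females against 1.78 to 25.5 and 6.47 to 35.3 in males. HNRNPKL, the W copy of an RNA-binding protein, had 3 probe sets above the filter, and its female signals were 128 to 419 in the brightest, against 1.18 to 15.5 in the males. In another of its probe sets the lowest female, 61.7, was under the highest male, 73.7 in E7 replicate 3, so the sexes overlapped there.

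Among W genes known only by a number, LOC430910 had 545 to 665 in the females and 8.39 to 125 in the males. LOC107049459 had 113 to 392 in females and 20.6 to 39.8 in males, LOC426615 had 73.7 to 148 and 0.422 to 8.35, and LOC427010 had 41.1 to 51.3 and 0.545 to 11.6. A second HINTW probe set was dimmer than the one that set the sexes, with 74.6 to 156 in females and 8.31 to 17.5 in males. LOC430910, LOC107049459 and HINTW are the W genes among the 7 probe sets called over all those tested, which is what a W-linked choice of the sexes selects.

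**Figure D1:**
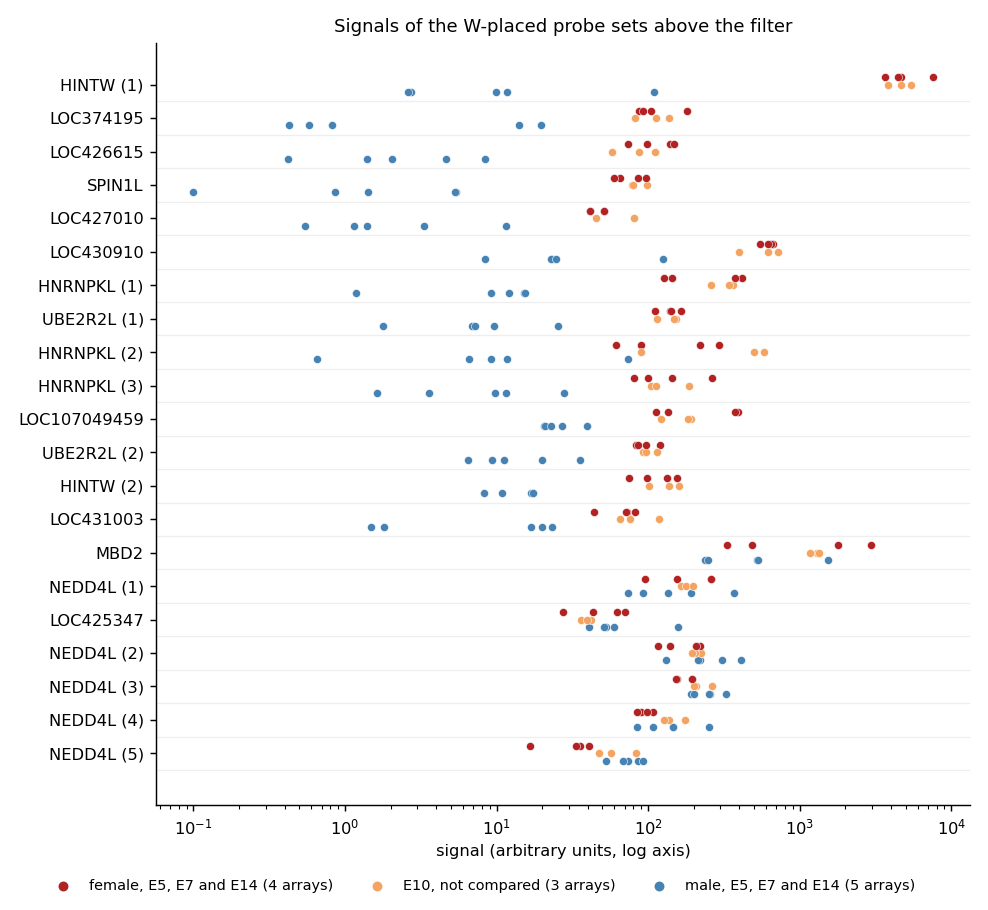
Signals on a log axis of the 21 probe sets that the annotation places on W and that passed the filter, 1 point per array, with several probe sets of a gene numbered. The 4 female and 3 E10 arrays lie above the 5 male arrays in 13 rows, and the rows of MBD2, NEDD4L and LOC425347 at the bottom show both sexes in the same range or the males higher.

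Some genes placed on W did not read as female-limited. MBD2, a reader of methylated DNA, had signals of 331 to 2944 in the females and 238 to 1535 in the males, with the lowest values at E5 and the highest at E14 in both. NEDD4L, a ubiquitin ligase, was read by 5 probe sets, none with females above males, and in the one with the lowest signals every female, at 16.6 to 40.6, was below every male, at 52.5 to 91.9. LOC425347 had 27.6 to 70.5 in females and 40.9 to 158 in males. The placement is that of a later assembly than the array, and whether these probe sets read a W gene was not tested. The other 18 W probe sets were under the filter, and in 4 of them every female was above every male. The share of all probe sets under the filter that did so was not computed, so nothing is read from this count.

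One male array had raised W signals. In 11 of the 13 separated probe sets the highest male was E7 replicate 3, whose HINTW signal of 109.6 was 1 of 5 male values otherwise no higher than 11.7. This array stood apart in other ways. Its median signal was 48.6, against 24.4 to 33.6 on the other 11 arrays, its mean correlation with the other E7 arrays was 0.807, and its ratio of 3′ to 5′ actin signal was 2.76, against 1.19 and 1.66 in the other E7 arrays. Its part in the results below was not tested beyond leaving it out. The E14 arrays of both sexes had actin ratios of 2.21 to 3.43.

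Z-linked genes were lower in female CAMs. Among 667 tested probe sets of the Z chromosome, 553 (82.9%) had a lower value in females than in males, and the median difference was -0.42, a female level of 0.747 of the male level. The 14606 autosomal probe sets had a median of 0.026, with 46.2% lower in females. The Z median was thus 0.45 lower than the autosomal one on the log2 scale, and this gap was -0.45 at E5, -0.44 at E7 and -0.45 at E14. Equalizing the median signal of the arrays moved all probe sets up together, with medians of -0.23 for Z and 0.21 for autosomes, and left the gap at -0.45. Among the numbered chromosomes with at least 20 tested probe sets the medians ran from -0.031 for chromosome 24 to 0.12 for chromosome 34, and Z had the lowest of all.

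The single arrays showed the same split. The median log2 signal of Z-linked minus that of autosomal probe sets was -0.31 at E5, -0.30 at E7 and -0.44 and -0.32 at E14 in the females, against 0.23 and 0.17, 0.20 and 0.088, and 0.055 in the males. No female reached any male. The E10 arrays, left out since all were above the female limit of HINTW, were at -0.29, -0.32 and -0.35. These values lay within or just above the range of the 4 females.

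**Figure D2:**
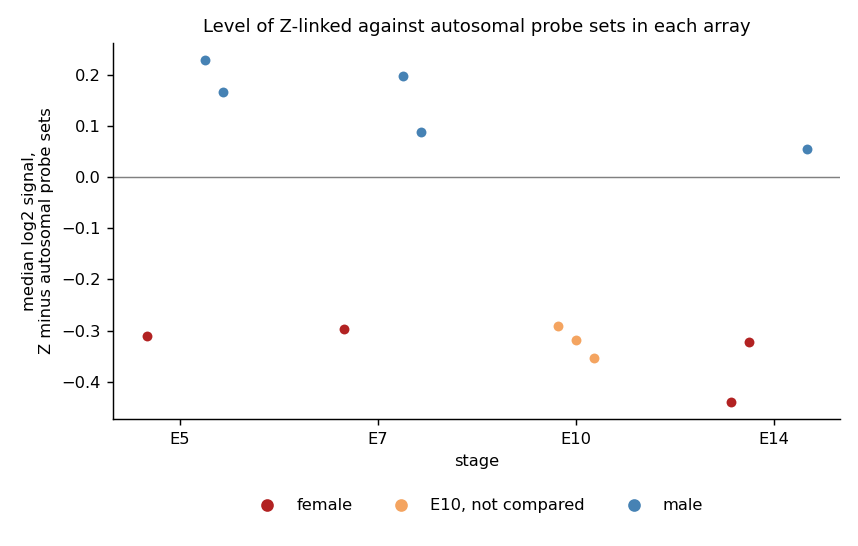
Median log2 signal of the 667 Z-linked probe sets minus that of the 14606 autosomal ones, 1 point per array, by stage. The 4 female arrays and the 3 E10 arrays lie between -0.44 and -0.29, and the 5 male arrays between 0.055 and 0.23.

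At the level of single genes the shift was small against the spread of the arrays. At an adjusted p under 0.05, 2 Z-linked probe sets were called lower in females and 0 higher, where 0.0105% of all tested probe sets were called lower and 0.0261% higher. At an unadjusted p under 0.05, 187 Z-linked probe sets (28.0%) were lower in females, where 2.38% of all tested probe sets were, and 4 were higher, where 2.44% were. In 191 (28.6%) the females lay below the males at each of the 3 stages with no overlap, where 3.73% of all tested probe sets did so. Without E7 replicate 3, which stood apart, 240 Z-linked probe sets were lower at an unadjusted p under 0.05 and 6 were called.

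Few Z-linked genes reached a difference of -1, the value of a level that follows the number of gene copies. The differences are of array signals, and how closely these follow the amount of RNA was not tested. With the brightest probe set taken for each of 441 Z genes the median was -0.42, and the outer deciles lay at -0.92 and 0.16. Of these genes 367 (83.2%) were below 0 and 334 lay between -1 and 0. The 95% confidence interval lay wholly below 0 for 136 genes and wholly above -1 for 199, and 20 genes met both, whereas for 126 the interval held 0 and -1 alike. Where 2 or more probe sets read the same Z gene, in 156 genes, all were below 0 in 104, all above in 11 and of both signs in 41.

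**Figure D3:**
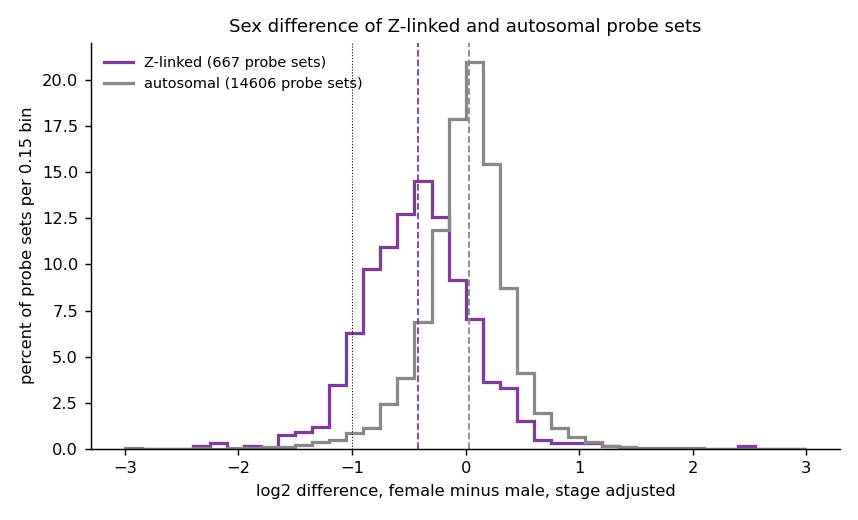
Share of probe sets in bins of 0.15 of the log2 difference, female minus male with stage adjusted, for the 667 Z-linked and 14606 autosomal probe sets, with values beyond 3 in size counted in the end bins. Dashed lines are the medians, -0.42 and 0.026, and the dotted line marks -1.

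The shift was present in dim and in bright genes. With the tested probe sets ranked by mean signal in 4 equal bins, the Z medians from the dimmest to the brightest bin were -0.44, -0.39, -0.46 and -0.40, beside autosomal medians of -0.11, -0.035, 0.046 and 0.093. In the brightest bin, where the median SE was 0.204 for Z, 34.1% of Z-linked probe sets were lower in females at every stage without overlap, and 0.658% of autosomal ones.

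TOMM5 and SRFBP1 were the Z-linked genes called lower. TOMM5 encodes a small subunit of the pore that imports proteins through the outer mitochondrial membrane. Its signals were 931 at E5, 358 at E7 and 239 and 229 at E14 in females, against 1781 and 2019, 994 and 1069, and 914 in males. Each female was below each male of its stage, and the difference was -1.51 (SE 0.19, limma adjusted p = 0.0207). In the E10 arrays TOMM5 had 753, 909 and 245, so that the level varied widely among CAMs of high HINTW. SRFBP1, which binds the serum response factor, had 74.6, 57.8, 75.9 and 30.4 in females, against 553, 508, 306, 247 and 171 in males. Here no female reached any male of any stage, the E10 arrays were at 47 to 62.4, and the difference was -2.30 (SE 0.30, limma adjusted p = 0.0207), with a 95% confidence interval of -2.95 to -1.65 that lay below -1.

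These calls did not hold when arrays were left out. E5 replicate 3, E7 replicate 2 and E14 replicate 2 are each the only array of their sex at their stage. Leaving out one of them therefore takes its whole stage out of the comparison, here and below. That of TOMM5 was lost without E5 replicates 2 or 3, E7 replicate 2 or any E14 array (limma adjusted p 0.0523 to 0.198), and that of SRFBP1 without any E5 array, E7 replicate 2 or E14 replicates 2 or 3 (0.0507 to 0.442). Both were also lost with equalized medians (0.942 and 0.114) and with eBayes without trend (0.267 and 0.252), and that of TOMM5 with all 12 arrays (0.165). The differences themselves ran from -1.75 to -1.28 for TOMM5 and from -2.54 to -2.04 for SRFBP1 over the arrays left out.

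DIMT1, an enzyme that methylates ribosomal RNA, came next. Its signals were 352, 198, 80.6 and 96.6 in the females of E5, E7 and E14, against 845 and 949, 532 and 363, and 187 in the males. Each female was below each male of its stage, and the difference was -1.19 (SE 0.19, limma adjusted p = 0.0782). Without E7 replicate 3 it passed (limma adjusted p = 0.0246), as it did with an offset of 16, a floor of 20, quantile normalization, array weights or all 12 arrays. GHR, the growth hormone receptor, whose mutations cause sex-linked dwarfism in chickens, had 119, 180, 146 and 169 in females, against 286 and 326, 407 and 238, and 415 in males. Its difference was -1.18 (SE 0.23, limma adjusted p = 0.192), and it passed without E7 replicate 3 (limma adjusted p = 0.0246). No GHR signal of a female reached that of any male, but the E10 arrays, at 236 to 339, lay above all 4 females.

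The other genes among the 10 of lowest p on Z were not called and had differences of -1.15 to -1.01 (limma adjusted p 0.134 to 0.345). XPA, which recognizes damaged DNA in nucleotide excision repair, had 210.2 to 508 in females and 596 to 718 in males. INIP, part of a complex that binds single-stranded DNA in repair, had 331 to 619 in females and 869 to 1287 in males. FAM174A had 441 to 791 and 1153 to 1972, and MRPS30, a protein of the mitochondrial ribosome, had 144 to 501 and 439 to 811. ARSB, a lysosomal sulfatase, and B4GALT1, a galactosyltransferase of the Golgi apparatus, completed the 10 with -1.02 and -1.05. With array weights FAM174A, INIP, XPA and B4GALT1 were called (limma adjusted p 0.0191 to 0.0321). In all but MRPS30 the lowest male was above the highest female.

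**Figure D4:**
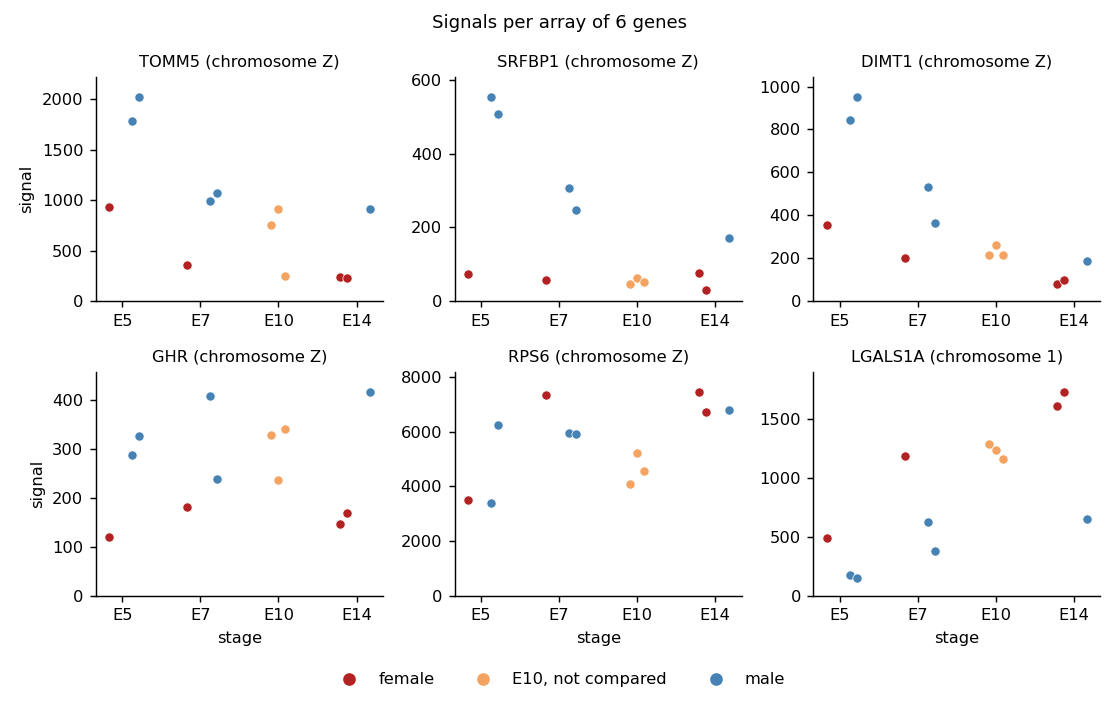
Signals per array of 6 genes by stage, with females left of males and the E10 arrays between. TOMM5, SRFBP1, DIMT1 and GHR lie lower in the females at E5, E7 and E14, RPS6 overlaps between the sexes, and LGALS1A lies higher in the females.

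By role, the cell cycle and DNA repair genes of Z had the lowest median. Of 27 tested members 25 were below 0, the median was -0.60, and 17 had an unadjusted p under 0.05 with females lower. None of the 27 was called. Among all tested Z-linked probe sets 82.9% were below 0 and 28.0% had such a p, a share that applies to each role list. RAD1, a clamp subunit of the DNA damage checkpoint, differed by -1.28 (SE 0.31), CKS2, a partner of cyclin-dependent kinases, by -1.02 (SE 0.28), and CCNH and CDK7, which together activate those kinases, by -0.96 (SE 0.24) and -0.59 (SE 0.22). SMC2, a core subunit of condensin that packs mitotic chromosomes, had 854, 797, 281 and 312 in females, against 1301 and 1449, 1465 and 1180.3, and 428 in males (-0.65, SE 0.17). Its level was lowest at E14 in both sexes, and females were below males at each stage. The exceptions in the list were the CDK inhibitor genes CDKN2A (0.034, SE 0.38) and CDKN2B (0.28, SE 0.45).

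Mitochondrial genes of Z showed a like value. The median over 21 members was -0.55, 18 were below 0 and 12 had an unadjusted p under 0.05 with females lower, beside 28.0% of all tested Z-linked probe sets. They included mitochondrial ribosome proteins, with MRPL50 at -0.94 (SE 0.21), MRPL17 at -0.85 (SE 0.21) and MRPS27 at -0.79 (SE 0.18). MRPS36 had -0.76 (SE 0.21). The assembly factor NDUFAF2 and the subunit NDUFS4 of respiratory complex I had -0.92 (SE 0.22) and -1.11 (SE 0.33), and COX7C of complex IV had -0.55 (SE 0.22). OXCT1, of ketone body use, and NNT, of the NADPH supply, stood near 0 at 0.077 (SE 0.18) and -0.080 (SE 0.18).

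Translation genes of Z varied among themselves. Over 17 members the median was -0.36, with 15 below 0 and 5 at an unadjusted p under 0.05 with females lower. The ribosomal proteins RPS6, RPS23 and RPL37, with signals of 3392 to 8708 on every array, had differences of -0.0086 (SE 0.23), -0.025 (SE 0.23) and -0.15 (SE 0.24), whose signs turned with equalized medians and with some arrays left out. The highest mean signal of any tested probe set was 7689.6, and whether signals as bright as these follow the amount of RNA was not tested. Factors that build ribosomes varied as well. Beside DIMT1, POLR1E, a subunit of RNA polymerase I, had -0.95 (SE 0.21). RIOK2 and UTP15 had -0.61 (SE 0.24) and -0.51 (SE 0.28), and WDR36 and RCL1 had -0.36 (SE 0.20) and -0.34 (SE 0.19), near the list median. The 2 members above 0 were NARS, which charges asparagine tRNA, at 0.14 (SE 0.16), and DHX29, a helicase of translation initiation, at 0.25 (SE 0.37).

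Genes of signaling, matrix and transcription had smaller medians. The signaling list had 26 tested members with a median of -0.26, 21 of them below 0 and 4 with an unadjusted p under 0.05 with females lower. Beside GHR it held TEK, the endothelial receptor of angiopoietins, at -0.25 (SE 0.23), LIFR, a cytokine receptor, at 0.27 (SE 0.20), and the kinases MAP3K1 and JAK2 at -0.27 (SE 0.22) and -0.067 (SE 0.30). In the matrix and adhesion list 9 of 16 were below 0, with a median of -0.17 and 1 member, EMB, at an unadjusted p under 0.05 (-0.77, SE 0.21). EMB encodes embigin, a cell surface protein that accompanies monocarboxylate transporters. ANXA1, the phospholipid-binding annexin A1, and ITGA1, the collagen-binding integrin subunit, had -0.30 (SE 0.28) and 0.046 (SE 0.27), and the sign for ITGA1 turned with the arrays used. The transcription list had a median of -0.23 over 21 members, with 2 at an unadjusted p under 0.05 and lower in females, NFIL3 (-0.74, SE 0.24) and TLE4 (-0.62, SE 0.22), and 1 higher, DMRT1.

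The trafficking list had a median of -0.27 over 28 members, 21 below 0 and 8 at an unadjusted p under 0.05 with females lower, among them STARD4, a carrier of cholesterol, at -0.83 (SE 0.20), GOLPH3 of the Golgi apparatus at -0.66 (SE 0.19) and the zinc transporter SLC30A5 at -0.43 (SE 0.19). Over all tested probe sets the median was 0.014, and 2.38% had an unadjusted p under 0.05 with females lower, but the lists hold Z genes, of whose probe sets 28.0% did. Against the share on Z, the counts of the signaling, matrix and transcription lists lay below it. Those of the translation and trafficking lists were near it, and those of cell cycle and mitochondria above it. The share is over all Z probe sets, whereas the lists use the brightest of each gene. Of Z-linked probe sets, 15.8% of the dimmest bin and 34.1% of the brightest were lower in females at every stage without overlap. No difference between the lists was tested.

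Z partners of W genes ran the same way. All 14 tested members of this list were below 0, with a median of -0.45, and 6 had an unadjusted p under 0.05. Over all tested Z-linked probe sets 82.9% were below 0, 28.0% had an unadjusted p under 0.05 with females lower, and the median was -0.42, near that of the list. SPIN1, the Z partner of SPIN1L, had -0.74 (SE 0.17), CHD1, the partner of the gene listed as CHD1W, -0.60 (SE 0.29), UBE2R2 -0.32 (SE 0.20), and HNRNPK -0.23 (SE 0.21). The HNRNPK probe set is of the same design cluster as one assigned to the W gene HNRNPKL. Whether it also reads the W transcript was not tested. Other members were RASA1, which switches off RAS (-0.79, SE 0.19), TXNL1, a thioredoxin-like protein (-0.69, SE 0.20), GOLPH3 and BTF3, a factor of nascent chains (-0.52, SE 0.20). Of the 4 whose W copy is described above, SPIN1 had an unadjusted p under 0.05 and CHD1, UBE2R2 and HNRNPK did not, and the levels of a W and a Z copy cannot be compared across probe sets.

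A stretch of the Z around DMRT1 stood nearer to 0 than the rest of the chromosome. In windows of 40 genes along the Z the medians ran from -0.66 (ATG10 to HEMGN) to -0.14 (F2RL1 to RIC1), the second of which holds DMRT1. Over the 22 genes from DOCK8 to PTPRD the median was -0.072, 1 gene lay under -0.5 and 1 had an unadjusted p under 0.05, that being DMRT1 with the higher value in females. Among the other 419 Z genes the median was -0.43 and 186 (44.4%) lay under -0.5. The ends of this stretch were set after its values were seen, so no test was made of it. Whether other runs of like length stand as near to 0 was not examined, and neighbours near 0 occur elsewhere on Z. From FSD1L to PRRC1 the measured genes, in order, had 0.28, -0.10 (TMEM38B), -0.15 (ZNF462), -0.12 (RAD23B), -0.49 (PHAX), 0.12 (LMNB1) and 0.35. Values near 0 are thus not particular to the stretch around DMRT1.

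Within it, KANK1, a regulator of the actin skeleton, differed by -0.071 (SE 0.21), SMARCA2, the ATPase of a chromatin remodeling complex, by -0.11 (SE 0.22), VLDLR, a lipoprotein and reelin receptor, by 0.013 (SE 0.20), PUM3 by -0.10 (SE 0.17), AK3, an adenylate kinase of mitochondria, by 0.14 (SE 0.18) and RIC1 by -0.094 (SE 0.19). Of the 22 genes 15 were below 0. Among these, RCL1 at -0.34 (SE 0.19) and UHRF2 at -0.51 (SE 0.27) had females below males at every stage. The median SE was 0.296 over the stretch and 0.271 over the other Z genes. On the side of DOCK8 away from DMRT1 the next measured genes were CBWD1 at -0.83 (SE 0.22), PGM5 at -0.15 (SE 0.33) and MRPS27 at -0.79 (SE 0.18). Past PTPRD they were LURAP1L at -0.52 (SE 0.28), MPDZ at -0.28 (SE 0.31) and NFIB at 0.36 (SE 0.38).

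**Figure D5:**
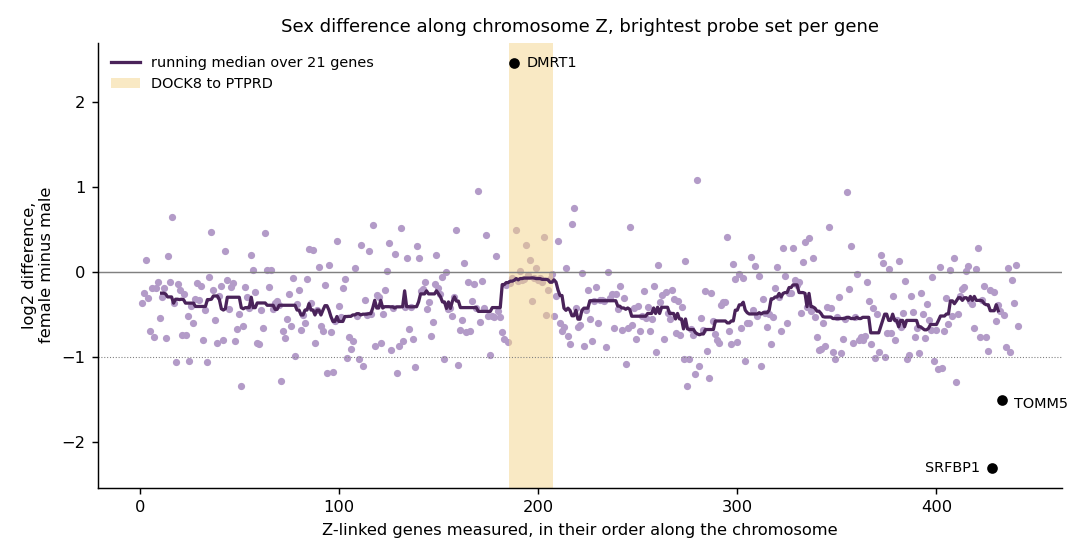
Log2 difference, female minus male, of the 441 Z genes measured, in their order along the chromosome, with the running median over 21 genes. The shaded stretch from DOCK8 to PTPRD has a median of -0.072, against -0.43 for the other Z genes, and the dotted line marks -1.

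DMRT1 itself was read above the filter by 1 of its probe sets. Its signals were 156 at E5, 124 at E7 and 34 and 52.7 at E14 in females, against 85.5 and 107, 90.1 and 88, and 0.582 in males. Females were higher at each stage, and the difference was 2.46 (SE 0.83, limma adjusted p = 0.913), most of it from the near-empty signal of the E14 male. Without that array, E14 replicate 2, it was 0.60, and with an offset of 16 it was 0.95. The E10 arrays had 83.3, 81.2 and 39.9, below every other array of E5 and E7.

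Higher values in females were the minority on Z, and none was called. Of the 667 tested Z-linked probe sets 4 (0.6%) were higher at an unadjusted p under 0.05. The 10 genes of lowest p in that direction had adjusted p of 0.913 to 0.998. ZFR2 (0.82, SE 0.30) was read by a probe set of the same design cluster as 1 that the annotation assigns to the W gene LOC427010, and whether it also reads the W transcript was not tested. The brightest ZFR2 probe set had 0.023 (SE 0.25). PSAT1, an enzyme of serine synthesis, had 521, 645, 349.7 and 278 in females, against 492 and 454, 531 and 389.7, and 162 in males (0.53, SE 0.20). MAN2A1, a mannosidase of the Golgi apparatus, had 0.41 (SE 0.17). In HOOK3 (1.27, SE 0.73) the value rested on a signal of 2.54 in the E14 male, and it was -0.26 without that array.

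After stage means were subtracted, the autosomal or Z-linked genes most like HINTW over the 9 arrays were all on Z and ran opposite to it. W-linked probe sets and those without a chromosome were not part of this ranking. ALDH7A1, an enzyme of lysine breakdown, had a Pearson correlation of -0.988 with HINTW, GHR -0.98, MRPS27 and DIMT1 -0.979 each, and PELO, which rescues stalled ribosomes, -0.978. ALDH7A1 had 739, 821, 1019 and 1074 in females, against 1164 and 1289.7, 1522 and 1074, and 2002 in males, with its lowest male value in E7 replicate 3. The 9 points share 3 stages and the choice of the sexes by HINTW, so these values are a description.

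Autosomal genes gave 1 call. LGALS1A, which encodes a galectin, a lectin that binds galactosides, and lies on chromosome 1, had 491 at E5, 1188 at E7 and 1604 and 1725 at E14 in females, against 179 and 148, 628 and 379.8, and 646 in males. Each female was above the males of its stage, and the difference was 1.41 (SE 0.20, limma adjusted p = 0.0283). The E10 arrays had 1161 to 1284, near the level of the E7 female. The call was lost without any E5 array, E7 replicate 2 or any E14 array (limma adjusted p 0.0903 to 0.469), with equalized medians (0.525), with eBayes without trend (0.334) and with the replicate block (0.0673), while the difference stayed between 1.32 and 1.52 over the arrays left out.

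In the main fit no autosomal gene was called lower in females, whereas some alternative settings gave such calls. At an unadjusted p under 0.05, 354 autosomal probe sets (2.42%) were higher and 168 (1.15%) lower in females. Over all tested probe sets 2.44% were higher and 2.38% lower, so neither autosomal share exceeded the overall one. LOC770705 on chromosome 9 had the lowest p of that direction, with 2.49, 20.2, 265 and 60.8 in females against 136 and 2207, 306 and 891, and 903 in males (-5.10, SE 0.93, limma adjusted p = 0.159), and its signals at E5 differed widely between the males. It was called with no filter on low signals (limma adjusted p = 0.0217) and with array weights (0.0194). MAF, a transcription factor, had -2.0 (SE 0.41, limma adjusted p = 0.276) and was called with array weights (limma adjusted p = 0.0141). TRPV6, a calcium channel of epithelia placed on chromosome 1, had -1.45 (SE 0.31, limma adjusted p = 0.326). Its probe set is of the same design cluster as one assigned to the Z gene AOPEP (-0.27, SE 0.37), and whether it reads a Z transcript was not tested. NR0B1, a nuclear receptor of steroid tissues, had -1.24 (SE 0.32, limma adjusted p = 0.604). In the E10 arrays LOC770705 had 119, 302 and 724, MAF 51.7 to 93.3, TRPV6 35 to 45.1 and NR0B1 135 to 261. The E10 signals of NR0B1 lay above all 4 females, at 33.7 to 87.9. Those of MAF and TRPV6 lay within the range of the females. Among those higher, ZBTB10, SPTBN1 (a spectrin of the membrane skeleton), LOC415661 and NOC2L had differences of 0.95 to 1.18 with adjusted p of 0.638.

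Of the 3830 tested probe sets without a chromosome, 6 had every female above every male and a median female signal over 8 times the male one. In 1 every male was above every female, with a median male signal over 8 times the female one. None of the 667 Z-linked or 14606 autosomal probe sets had either pattern, and 11 of the 21 W-placed ones had the first. In 5 of the 6 the E10 arrays were above every male as well. The one of them that is among the 7 calls had 272, 276, 316 and 342 in females, against 0.349, 5.88, 5.69, 7.72 and 6.92 in males, with 255 to 347 at E10. All male signals were under the minimum of 32, so that it passed the filter through the females alone, and as with the W genes its difference is a description. Its gene is not named by the annotation.

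Genes of gonadal sex and steroid action were mostly under the filter. Of 22 read by the arrays 6 were tested and none was called. The brightest, the Z-linked HSD17B4, had 508 to 781 in females and 651 to 1037 in males (-0.52, SE 0.19). Its females were below the males at every stage. CYP19A1, the aromatase that makes estrogen in the ovary, had signals of 1.37 to 9.49 in females and 1.62 to 12.2 in males. FOXL2, a transcription factor of the ovary, had 14.3 to 36.5 in females and 23.1 to 107 in males (-1.19, SE 0.53), SOX9 of the testis had 52.1 to 173 and 47 to 92.3 (0.0031, SE 0.34), and AMH had 178 to 272 and 134 to 289 (0.16, SE 0.21).

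Markers of the cell types of the membrane were not called in either direction. The median differences were 0.084 over 10 endothelial genes, 0.13 over 7 erythroid, -0.15 over 6 leukocyte, 0.061 over 6 epithelial, 0.47 over 6 mural, 0.26 over 6 mesenchymal and 0.48 over 3 lymphatic genes. Summed signals overlapped between the sexes in each of these, with 3939 to 7375 in females and 2585 to 8246 in males for the endothelium and 839 to 4974 and 820.1 to 2191 for mural cells. These ranges pool the stages without adjustment, and markers change with stage, so their overlap cannot show a like cell makeup. TAGLN, for one, had 253 and 486 in the E5 males and 1027 in the E14 male. TAGLN and MYH11, the brightest mural genes, differed by 0.59 (SE 0.28) and 0.56 (SE 0.47), and 1 of the 6 mural genes was below 0. CDH5, the endothelial cadherin, had 0.16 (SE 0.22), the hemoglobin genes HBA1 and HBAD 0.27 (SE 0.28) and 0.13 (SE 0.26), and EPCAM of epithelia 0.24 (SE 0.20). FLT4, the receptor that drives lymphatic growth, had 219, 418, 455 and 309 in females, against 147 and 143, 322 and 322, and 238 in males (0.54, SE 0.19, limma adjusted p = 0.934). C1QB, of complement in macrophages, was the other marker with an unadjusted p under 0.05 (0.82, SE 0.33), with signals of 17.1 to 58.9 at E5 and E7. Other members of these lists went the other way. Below 0 were 4 of 6 leukocyte genes, 3 of 7 erythroid, 3 of 10 endothelial and 1 of 6 epithelial. The thrombocyte list rested on GP9 alone (-0.61, SE 0.58). The part of cell makeup in the Z result was not tested.

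Whether the sex difference itself differed between stages was tested with a stage by sex interaction. It was called in 2 of 19124 probe sets (0.0105%), and 782 had an unadjusted p under 0.05. Both called genes, CSRNP1 and PRRC2C, were autosomal and near-empty in the single E14 male. At each stage 1 of the sexes had a single array.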

How the data were processed

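RNA of whole CAMs was hybridized to Affymetrix chicken genome arrays, 1 embryo to an array, at E5, E7, E10 and E14 with 3 arrays each. The authors computed signal intensities in GCOS 1.2 and scaled each array to a target of 100, and the deposited intensity values are these signals, not logged. Probe sets were named from the platform annotation, in which 27168 had 1 symbol, 177 several and 11094 none, and 26853 matched RefSeq genes of GRCg7b, from which the chromosome was taken. A symbol was used only where it was single.

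Sex was taken from the HINTW signal. The members and lists were chosen with earlier results of these data known. A probe set was tested where its signal was at least 32 in at least 4 of the 9 arrays, which left 19124. Log2 signals were fitted with limma 3.58.1 in R 4.3.3 (lmFit with stage and sex, eBayes with trend, Benjamini-Hochberg over all tested probe sets), with 5 residual degrees of freedom and a median SE of 0.309. The separate embryos are the replicates. For each gene of a list the brightest probe set was used. The genes named by rule were the 10 Z-linked and 5 autosomal genes of lowest adjusted p in each direction. Also named by rule were the 5 autosomal or Z-linked genes most like HINTW and all W probe sets. The same rule named up to 4 called or brightest members of each Z list and the 2 brightest of each other list. Not all genes that the rule named are described above. Other list members, the genes near DMRT1 and the genes with a stage by sex interaction were named after their values were seen. On simulated data for this comparison over 19124 probe sets, 55 of 100 probe sets changed 4-fold and 0 of 100 changed 1.5-fold were called, with 0 false calls. The number of arrays limits the precision. Figures were drawn with matplotlib 3.10.9 in Python 3.11.15. Alternatives were other filters, an offset, a floor, other normalizations, eBayes without trend, array weights, all 12 arrays, a fold minimum, the brightest probe set per gene, the replicate number as a block, and each array left out. The 96 control probe sets were left out.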

Additional observations from a re-analysis of the deposited data

Results flagged for a closer look

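A single array stood far from its group, by Dixon's criterion, in 3 of 62 groups of arrays checked, where chance alone gives about 1 in 20. The brightest HNRNPKL probe set had a signal of 1.18 in E7 replicate 1, against 9.19 to 15.5 in the other males. LOC425347 had 158 in E7 replicate 3, against 40.9 to 59.6 in the other males. The probe set without a chromosome that is among the 7 calls had 0.349 in E5 replicate 1, against 5.69 to 7.72 in the other males.

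The sex difference differed between stages in 2 autosomal genes. CSRNP1, on chromosome 2, had signals of 743 and 636 in the E14 females against 14.6 in the E14 male, and its differences were -0.77 at E5, -0.46 at E7 and 5.55 at E14 (limma F test of the interaction, adjusted p = 0.015). PRRC2C, on chromosome 8, had 100.5 and 130 in the E14 females against 2.35 in the E14 male, with differences of 0.024, 0.56 and 5.61 over the stages (limma F test, adjusted p = 0.0273). Both rest on 1 male array, E14 replicate 2.

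The 3 arrays of E10, which entered no comparison, had HINTW signals of 3830, 5386 and 4643, against 2.59 to 109.6 in the male arrays of the other stages.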

How the results depend on the processing

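The Z-linked median stayed below the autosomal one under every alternative run, with a gap of -0.45 that was -0.39 with no filter on low signals, -0.37 with 16 added to each signal, and -0.48 to -0.43 over the arrays left out. The number of calls depended on the setting. Against 7 calls over all probe sets there were 14 with no filter, 11 with the filter by stage minimum, 20 with 16 added, 19 with signals under 20 set to 20, 12 with quantile normalization, 11 with medians equalized, 1 with eBayes without trend, 42 with array weights, 21 with all 12 arrays and 1 to 15 over the arrays left out. Against 2 calls on Z there were 4 with quantile normalization, 0 with medians equalized, 0 with eBayes without trend, 20 with array weights and 0 to 6 over the arrays left out. Against 1 autosomal call there were 2 with no filter, 0 with medians equalized, 0 with eBayes without trend, 3 with array weights and 0 to 1 over the arrays left out. The cause was not tested.

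The 187 Z-linked probe sets lower in females at an unadjusted p under 0.05 became 37 with medians equalized, 45 with a fold over 2 required and 120 to 240 over the arrays left out, 120 without E5 replicate 3 and 122 without E14 replicate 2. The Z median of -0.42 was -0.35 with 16 added, -0.37 with quantile normalization, -0.23 with medians equalized and -0.47 to -0.40 over the arrays left out. The autosomal median of 0.026 was -0.044 with no filter, 0.21 with medians equalized and -0.013 to 0.069 over the arrays left out. The share of Z-linked probe sets lower in females, 82.9%, was 70.6% with medians equalized. The 191 that did not overlap at any stage became 204 to 325 over the arrays left out, an alternative chosen after seeing the data, in which fewer arrays can only raise the count. The highest was without E7 replicate 2, where 12% of all tested probe sets met the same criterion. That array is the only E7 female, so only E5 and E14 were then compared. E5 replicate 3 and E14 replicate 2 are likewise the only E5 female and the only E14 male. The 2 interaction calls became 10 with no filter, 1 with signals under 20 set to 20 and 0 with quantile normalization.

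Replicate numbers are not stated to pair embryos. Arrays of the same number had correlations of -0.288 to 0.68 of their deviations from the fit with stage and sex. Arrays of different numbers had correlations of both signs as well. These values cannot show whether the numbers pair embryos. With a single array of 1 sex at each stage, that fit ties the deviations of E5 replicate 3, E7 replicate 2 and E14 replicate 2 together. The value of 0.68 is that of E7 replicate 2 with E14 replicate 2. With the replicate block there were 8 calls over all probe sets, a Z median of -0.40 and an autosomal one of 0.059, and the call of LGALS1A was lost.

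Over 80 named genes and 22 settings, 1588 values kept direction and side of the threshold, 27 lost a call, 19 gained one and 44 changed sign. With medians equalized the sign turned for RPL17 (0.0015), PIK3R1 (0.062), RPL37 (0.036), RPS23 (0.16), RPS6 (0.18), TXN (0.074), SUB1 (0.014), ZNF462 (0.034) and TMED7 (0.0079). With the replicate block it turned for ITGA1 (-0.11), RPS23 (0.065), RPS6 (0.07) and SOX17 (-0.026), with quantile normalization for CDH1 (-0.06) and LYVE1 (-0.048), and with array weights for COL3A1 (-0.039). Over the arrays left out the values spanned 0 for HOOK3 (-0.26 to 2.09), PIK3R1 (-0.36 to 0.056), TEK (-0.53 to 0.054), ITGA1 (-0.28 to 0.52), RPL37 (-0.34 to 0.063), RPS23 (-0.18 to 0.24), RPS6 (-0.17 to 0.18), TXN (-0.32 to 0.083), SOX17 (-0.26 to 0.37), HBAD (-0.12 to 0.45), HBA1 (-0.067 to 0.56), CD74 (-0.059 to 0.45), BLB1 (-0.49 to 0.045), CDH1 (-0.050 to 0.13), COL3A1 (-0.023 to 0.21), COL1A1 (-0.075 to 0.36) and LYVE1 (-0.14 to 0.20).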
